A study of Mus musculus with 3 samples.

Results

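The laminin and integrin genes of mouse skin were followed by RNA sequencing at 3 ages: before birth on embryonic day 18.5 (E18.5), after it on day 3 (P3), and in adults of 10 weeks. Members were all gene rows named Lama, Lamb or Lamc plus a number, or Itga or Itgb followed by a number, a number plus b, or a single letter. This gave 37 genes, 11 laminins and 26 integrins, of 21885 gene rows in all, and every one was listed at all 3 ages. The results cover 36 of them. The name rule leaves out 6 rows with like names: the binding partners Itgb1bp1, Itgb1bp2, Itgb1bp3 and Itgb3bp, the integrin-like Itgbl1, and Itgb2l, at 0.00291 FPKM or less. Each age was skin of FVB mice, an inbred strain, labelled as embryo, pup or adult and headed WT in the tables, with no treatment named. The series design names 2 biological replicates per age, but the values used here are 1 average per gene and age. Differences below thus carry no error and no p-value, and none could be checked against replicates.

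Laminins are secreted trimers of an alpha, a beta and a gamma chain that polymerise into the sheet of every basement membrane. Integrins are receptors of an alpha and a beta subunit that bind laminins, collagens, fibronectin or counter-receptors on other cells and link them to the cytoskeleton. In skin, the Lama3 and Lamb3 chains are part of the laminin under the epidermis, held by the Itga6 and Itgb4 pair of the hemidesmosome and by Itga3 with Itgb1. Lama4 and Lama5 chains occur in vessel walls, Lama5 also under epithelia and Lama2 around muscle fibres, whereas the Itgb2 and Itgb7 receptors belong to leukocytes. The members were sorted into such classes from textbook knowledge: 6 epithelial, 5 vascular and mural, 2 muscle, 8 leukocyte, 1 platelet, 2 fibroblast, 10 broad or shared and 2 restricted genes. These classes and the gene lists below were drawn up with earlier results of these data known. Their counts beside the shares of all genes thus describe the data and are no independent support.

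The skin samples held several tissues, and markers of these differed between the ages. Summed over 8 skeletal muscle markers, the level read 4554 FPKM at E18.5, 386 at P3 and 20662 in the adult. The 9 endothelial markers summed to 259, 83.8 and 215 FPKM, and the 6 basal keratinocyte markers to 2582, 5989 and 2576 FPKM. The E18.5 library also differed in sex-linked genes, with Xist at 0.0433 FPKM against 64.6 at P3 and 73.0 at 10 weeks. The Y-linked genes went the other way: Eif2s3y (42.1, 0.0838 and 0 FPKM), Ddx3y (24.1, 0.0218 and 0), Uty (7.5, 0.00366 and 0) and Kdm5d (7.13, 0 and 0). The labels give no sex, and in both comparisons with E18.5 a difference of sex cannot be told apart from age. No member lies on chromosome X or Y (0 of 36), and the part of tissue makeup or sex in the results was not tested. Values are FPKM, fragments relative to transcript length and library size, so that levels can be set side by side between genes. Depth is unknown, which leaves low values without a stated precision.

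The comparisons ask how the subunits differed between late embryonic, newborn and adult skin. Higher and lower below mean a log2 difference of 1 or more in size (2-fold) on the scale of FPKM + 1, in genes that reached 1 FPKM at 1 or more ages. That minimum was met by 33 members and missed by 3: the laminin chain Lama1 (0.0779, 0.0953 and 0.939 FPKM at E18.5, P3 and 10 weeks), Itga10 and Itgad. Itga10, a collagen receptor subunit, lay between 0.260 and 0.643 FPKM, and Itgad, a leukocyte subunit whose span is shared with the muscle gene Cox6a2 (49.0, 4.73 and 424 FPKM), between 0.0164 and 0.217 FPKM. Only at 10 weeks did Itgae and Itgb7 reach the minimum, so their calls follow in part from it. From E18.5 to P3, 4 of 33 members were higher and 2 lower, or 18.2% called against 19.0% of all genes. From P3 to 10 weeks 11 were higher and 3 lower, or 42.4% called against 29.8% of all genes. From E18.5 to 10 weeks 9 were higher and 1 lower, or 30.3% against 23.0%. The members' median log2 differences were -0.12, 0.60 and 0.39, beside 0.03, 0.14 and 0.22 over all genes. With the values as deposited, the first comparison was thus near the share of all genes, and the later ones above it.

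Other scalings shift all log2 ratios down, by 0.12, 0.10 and 0.22 in the order above for the median of ratios, and by 0.22, 0.08 and 0.30 for the upper quartile. With the upper quartile, P3 against E18.5 gave 1099 higher and 1843 lower genes in all, instead of 1401 and 1380 as deposited. For 10 weeks against E18.5 the counts became 1786 and 1355, against 2358 and 1014. Of the members, 7 were higher and 1 lower in that comparison under both scalings, against 9 and 1. All genes were 13.2% higher and 8.46% lower with the median of ratios, and 12.2% and 9.27% with the upper quartile. The members' excess over all genes was thus smaller there than as deposited. Members whose call depends on the scaling are named below. With a pseudocount of 5 in place of 1, which weighs low genes less, 14 of the 30 member calls were lost. They were Itga5, Itgb6 and Lama5 from E18.5 to P3, and Itga3, Lama3, Itga11, Itgae, Itgal and Itgb3 from P3 to 10 weeks. From E18.5 to 10 weeks they were Itga7, Itgae, Itgax, Lamb2 and Lamc3. With a pseudocount of 0.1, 12 calls were gained. They were Itga4, Itga9, Itgax, Itgb8 and Lamb3 from E18.5 to P3, and Itga2b, Itga4 and Itga9 from P3 to 10 weeks. From E18.5 to 10 weeks they were Itga2b, Itgal, Itgb6 and Itgb8.

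**Figure D1:**
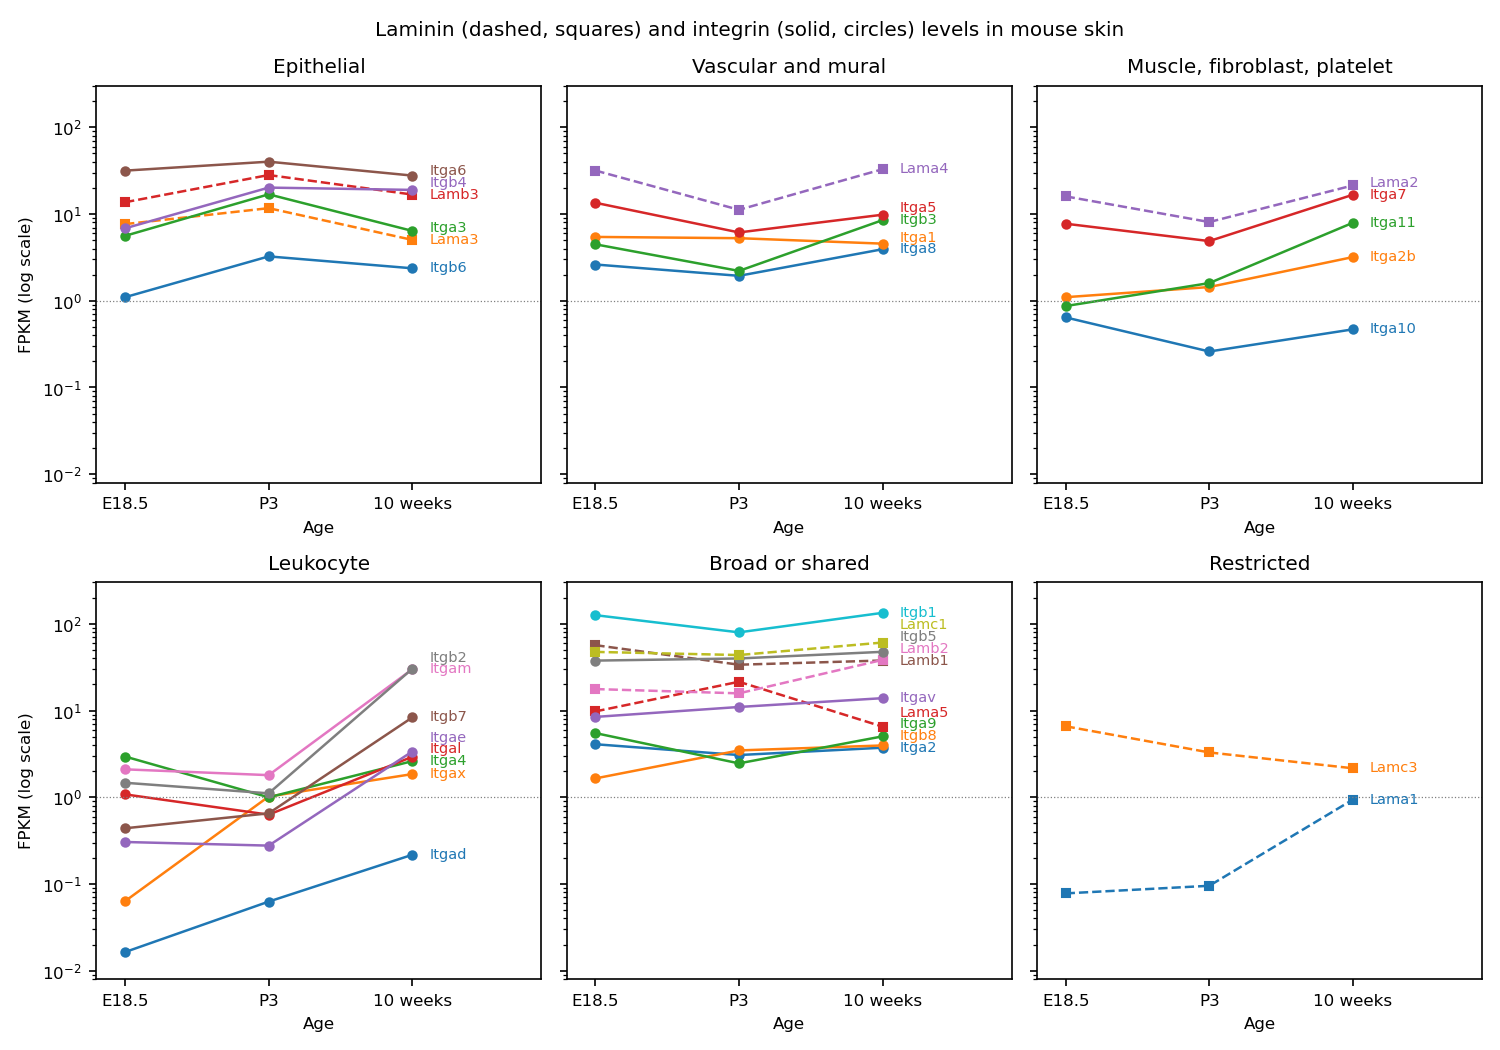
FPKM (log axis) of 36 members at the 3 ages, 1 averaged value per point, in 6 panels by class; laminins are dashed with squares, integrins solid with circles, and the dotted line marks 1 FPKM. Epithelial members stand highest at P3, Lama4 and Lama2 lowest at P3, and Itgb2 and Itgam climb to 30.3 and 29.9 FPKM at 10 weeks.

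The epithelial class stood highest at P3: all 6 members had their largest value there, 3 were higher than at E18.5 (9.56% of all genes were) and 0 lower. Itga3, an alpha subunit of the basal keratinocyte receptor for epidermal laminin, had 5.61 FPKM at E18.5, 16.9 at P3 and 6.40 in the adult. P3 was thus the single high age for Itga3, with log2 differences of 1.43 and then -1.27. Lama5, the alpha chain of the laminin that runs under epithelia and in vessels, was classed as shared and had the same course, at 9.78, 21.5 and 6.53 FPKM. Its log2 difference from E18.5 to P3 was 1.06, a call lost under both other scalings (0.96 and 0.86), and from P3 to 10 weeks it was -1.58. Itga3 and Lama5 were the 2 members that passed 2-fold at P3 against both other ages.

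Because these 2 genes had that course in common, the 250 bases before their start sites are shown, from the RefSeq promoter table (GRCm38.p6), which held windows for 23 of the 36 members. Capitals mark matches of GGGCGG, the letters bound by Sp1-type factors, on either strand. Lama5 lies at chr2:180225860-180226109, minus strand, and Itga3, in the more upstream of its 2 listed windows, at chr11:95076715-95076964, minus strand.
Lama5: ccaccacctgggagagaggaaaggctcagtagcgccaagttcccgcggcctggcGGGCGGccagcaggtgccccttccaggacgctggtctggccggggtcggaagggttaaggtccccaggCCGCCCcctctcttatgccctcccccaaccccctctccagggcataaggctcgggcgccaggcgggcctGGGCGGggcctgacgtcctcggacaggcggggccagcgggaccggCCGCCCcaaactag
Itga3: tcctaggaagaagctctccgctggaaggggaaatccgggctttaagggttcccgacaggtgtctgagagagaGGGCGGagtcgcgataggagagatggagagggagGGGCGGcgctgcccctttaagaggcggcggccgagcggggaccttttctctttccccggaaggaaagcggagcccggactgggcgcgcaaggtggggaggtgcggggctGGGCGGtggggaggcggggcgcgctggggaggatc
Lama5 held 4 matches and this Itga3 window 3, and 32.7% of all 32817 windows of this length held at least 1, as did 9 of the 26 windows of members. The other Itga3 window held 1 match, and Itgb5, which passed 2-fold in no comparison, held 3. The AP-1 letters TGANTCA were in neither window, and in 6.75% of all windows.

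The beta and alpha chains of the epidermal laminin did not keep 1 ratio. Lamb3, the beta chain (mm9 chromosome 1, 195128188 to 195170072), had 13.7 FPKM at E18.5, 28.2 at P3 and 16.8 in the adult, and the alpha chain Lama3 stood at 7.66, 11.7 and 5.04 FPKM. Both had their largest value at P3, with differences from E18.5 of 0.99 for Lamb3 and 0.55 for Lama3. To 10 weeks the fall of Lama3 passed 2-fold (-1.07) and the difference of Lamb3 did not. Lamb3 exceeded Lama3 by a ratio of 1.79 at E18.5, 2.41 at P3 and 3.33 in the adult, so that Lama3 was the lower of them at each age.

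The subunits of the hemidesmosome pair differed in their calls. Itgb4, the beta subunit whose long cytoplasmic tail binds plectin (chromosome 11, 115836039 to 115874033), had 6.85 FPKM at E18.5, 20.2 at P3 and 19.0 in the adult. It was higher at P3 (1.43) and remained so in the adult against E18.5 (1.35). Itga6, its only known alpha partner (chromosome 2, 71625140 to 71694815), stood at 31.7, 40.2 and 27.8 FPKM and passed 2-fold in no comparison. The Itgb4 to Itga6 ratio was 0.216, 0.503 and 0.684. Itgb4 thus came nearer to Itga6 at each later age. Col17a1, the transmembrane collagen of the same junction, stood at 30.1, 89.7 and 78.9 FPKM. Itgb4 was 0.228, 0.225 and 0.241 of it, a ratio looked at after the values were seen. Ratios to some other basal keratinocyte markers would take another course. Krt5 and Krt14 were lower at 10 weeks than at P3 (-1.69 and -1.91), where Itgb4 differed by -0.09. Itgb4 shares its listed span with Galk1 (27.0, 18.1 and 13.3 FPKM), and the strand setting is not given in the sources used here, so reads of the 2 genes may not be fully told apart. Itgb6, which pairs with Itgav and activates latent TGF-beta in epithelia, stood at 1.10, 3.25 and 2.37 FPKM. Its log2 difference of 1.02 at P3 is lost under both other scalings (0.95 and 0.89).

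At 10 weeks 2 of the 6 epithelial members, Itga3 and Lama3, were lower than at P3 (9.98% of all genes were) and 0 higher, and with a pseudocount of 5 neither was called. The class median was 1.00 from E18.5 to P3 and -0.62 from P3 to 10 weeks. Of the basal keratinocyte markers, 3 of 6 were higher at P3 (9.56% of all genes were). At 10 weeks 2 of 6 were lower than at P3 (9.98% were). The medians of these markers were 1.12 and -0.53. In RNA of bulk skin, fewer cells of a type and less RNA per cell cannot be told apart.

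**Figure D2:**
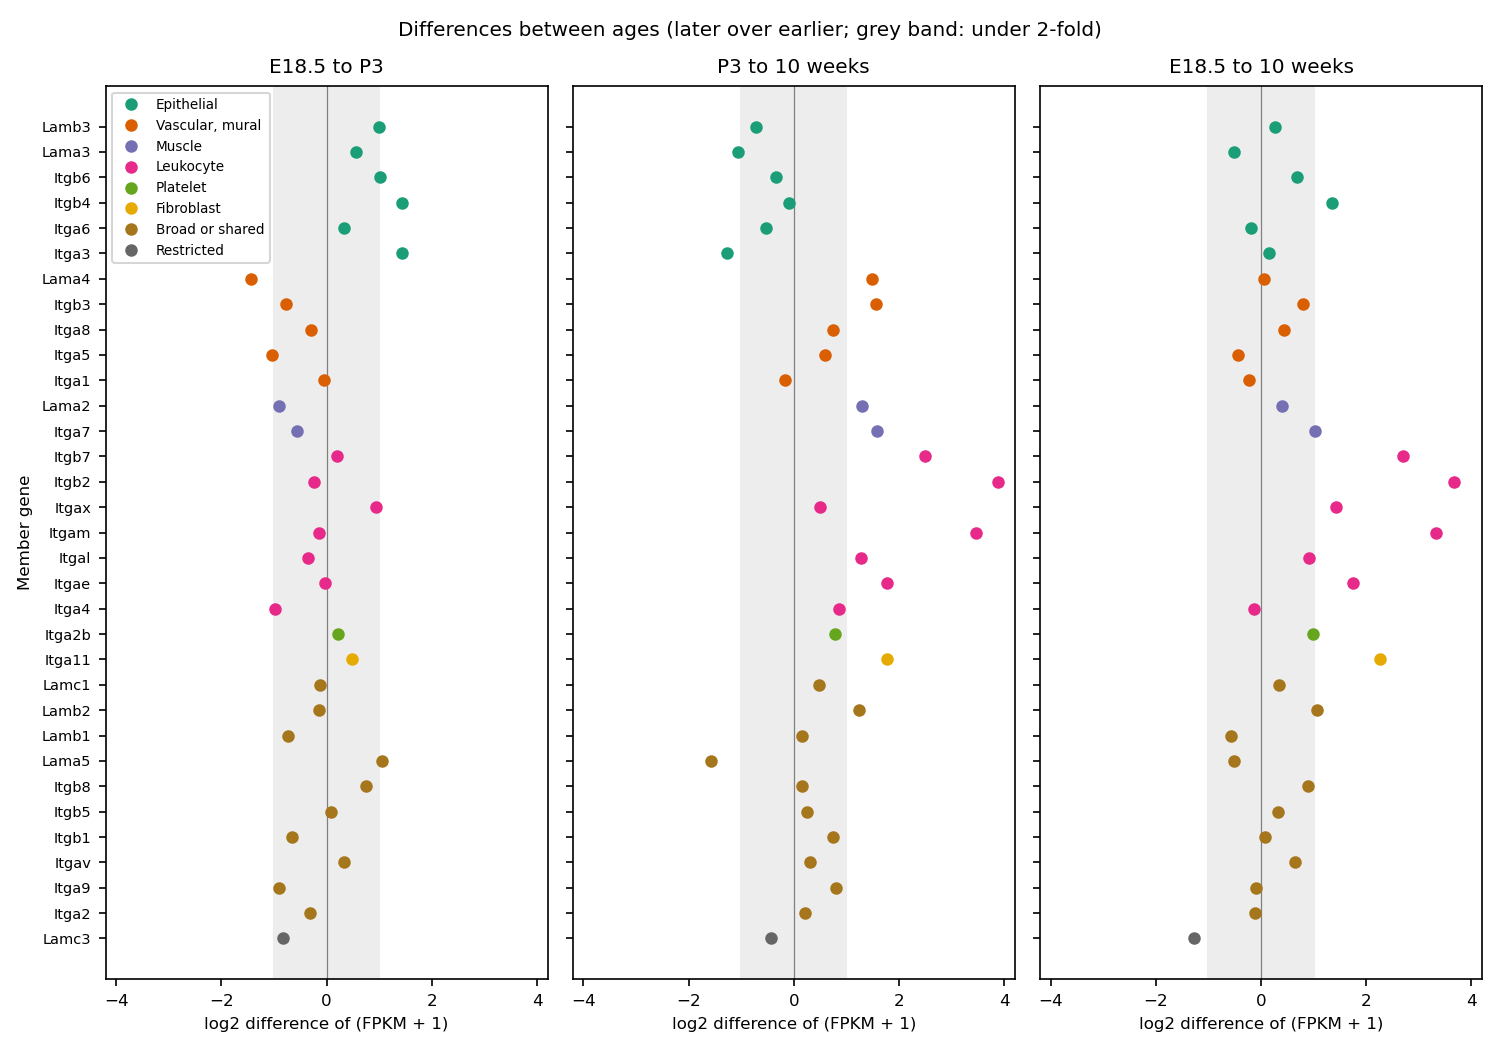
Log2 differences of FPKM + 1, later age over earlier, for the 33 members that reached 1 FPKM, in 3 panels by comparison; colours give the class and the grey band marks differences under 2-fold. Itga3 and Itgb4 lie farthest right at P3 (1.43 each), Lama4 farthest left (-1.43), and Itgb2 and Itgam farthest right from P3 to 10 weeks (3.89 and 3.47).

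Lama4, Itga5, Itgb3 and Itga8 of the vascular and mural class had their lowest value at P3, and Itga1 at 10 weeks. Lama4, the alpha chain of vessel walls and fat (chromosome 10, 38685321 to 38829994), had 31.8 FPKM at E18.5, 11.2 at P3 and 32.9 in the adult. Its value was low at P3 and nearly equal at the other ages, with log2 differences of -1.43 and 1.48. It was the 1 member lower at P3 than both other ages. Itga5, the fibronectin receptor alpha subunit of vessels and fibroblasts, stood at 13.5, 6.14 and 9.83 FPKM and was lower at P3 (-1.03). Itgb3, the beta subunit of the vitronectin and platelet receptors, stood at 4.48, 2.21 and 8.51 FPKM and was higher at 10 weeks than at P3 (1.57). Itga8, a smooth muscle and mesenchymal receptor for nephronectin, stood at 2.62, 1.94 and 3.93 FPKM, and the collagen receptor subunit Itga1 at 5.45, 5.27 and 4.56 FPKM. Neither passed 2-fold, and Itga1 shares its span with Pelo (8.57 to 10.4 FPKM).

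Of the 5 vascular and mural members, 2 were lower at P3 than at E18.5 (9.42% of all genes were), 2 higher at 10 weeks than at P3 (19.8% of all genes were), and 0 called between E18.5 and 10 weeks. All 9 endothelial markers were lower at P3 (-1.92 to -1.32), and 6 of 9 were higher again at 10 weeks. Lama4 stood at 0.574, 0.632 and 0.682 of the endothelial marker Pecam1 at the 3 ages, a ratio also chosen after the values were seen. Pecam1 is 1 of the 9 markers, and ratios to others would take another course. From P3 to 10 weeks the markers spanned 0.52 (Cdh5) to 2.41 (Tek), with Lama4 at 1.48. Of the 8 pericyte and smooth muscle markers, 0 were called at P3 and 6 were higher at 10 weeks than at P3.

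In the muscle class, both members were higher at 10 weeks than at P3 (19.8% of all genes were). Lama2, the alpha chain around muscle fibres and nerves (chromosome 10, 26701092 to 27336748), had 16 FPKM at E18.5, 8.09 at P3 and 21.4 in the adult. Itga7, the laminin receptor alpha subunit of skeletal and smooth muscle, stood at 7.74, 4.88 and 16.7 FPKM. P3 was the low age for both, with rises to 10 weeks of 1.30 for Lama2 and 1.59 for Itga7. At P3 against E18.5 Lama2 had a difference of -0.91, which passes under both other scalings (-1.02 and -1.11). Itga7 was higher at 10 weeks than at E18.5 by 1.02, a call lost under both (0.82 and 0.74). The 8 skeletal muscle markers moved further in the same comparisons, with a median of -3.27 at P3 and of 5.93 from P3 to 10 weeks. The 6 fibroblast markers had medians of -1.42 and 2.17, also further than Lama2 but nearer to it. They spanned -1.85 to -1.36 in the first comparison and -0.22 to 3.43 in the second. Lama2 lay within the second range, where Col1a1 (-0.22) and Col1a2 (0.37) moved less than it. Lama2 was 0.521, 0.761 and 0.406 of the fibroblast marker Pdgfra at the 3 ages. Ratios to these 2 collagen genes would take another course. Pericyte and smooth muscle markers spanned -0.95 to 0.63 in the first comparison and -0.11 to 2.18 in the second, and Itga7 lay within both ranges. Which cell types Lama2 and Itga7 follow was not tested. Itga7 was 0.0170 of the creatine kinase gene Ckm at E18.5, 0.186 at P3 and 0.00542 in the adult. This ratio and that of Lama2 to Pdgfra were not fixed in advance. Itga7 shares its span with Mettl7b (0.545 to 2.72 FPKM).

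**Figure D3:**
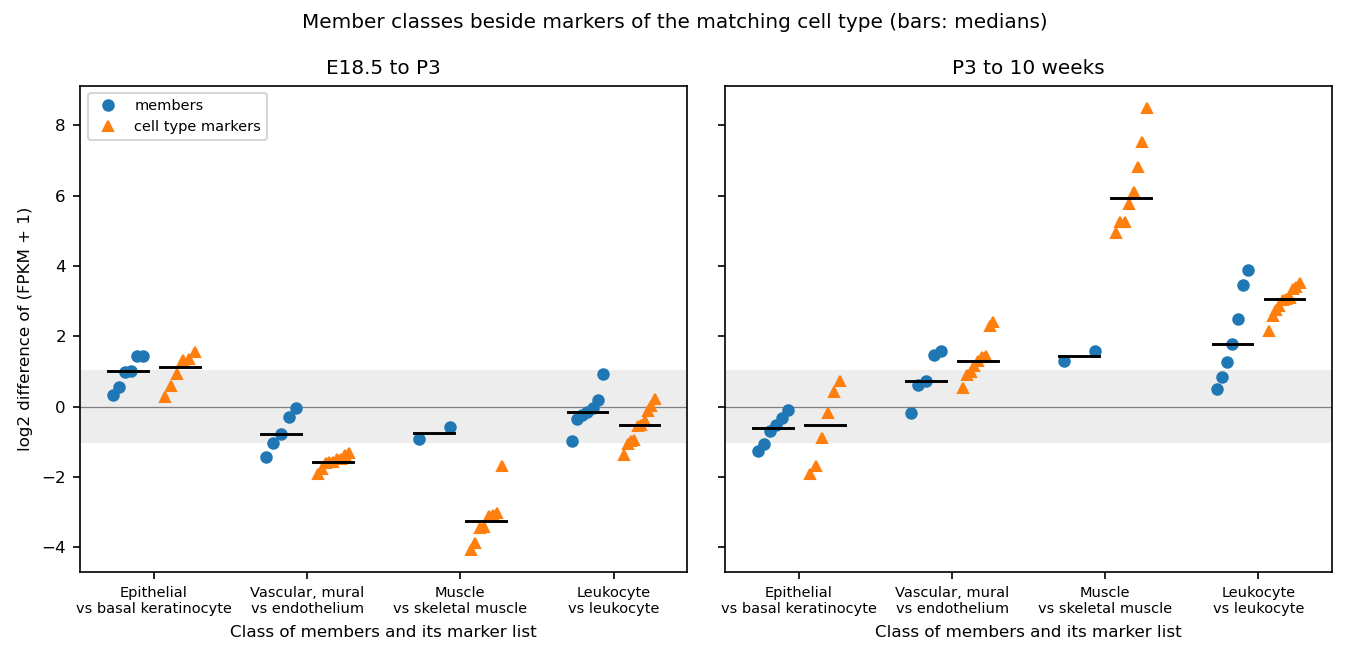
Log2 differences of FPKM + 1 for the members of 4 classes (circles, those reaching 1 FPKM) beside markers of the matching cell type (triangles), from E18.5 to P3 and from P3 to 10 weeks; bars are medians and the grey band marks differences under 2-fold. Skeletal muscle markers (medians -3.27 and 5.93) lie far outside the muscle members, while the epithelial members (1.00 and -0.62) lie among the keratinocyte markers (1.12 and -0.53).

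Of the leukocyte subunits, Itgb2, Itgam, Itgb7 and Itgae were higher in the adult than at both other ages. Itgb2, the beta subunit shared by the leukocyte adhesion receptors (chromosome 10, 76993093 to 77028419), had 1.47 FPKM at E18.5, 1.11 at P3 and 30.3 in the adult. Its partner Itgam, the alpha subunit of the macrophage and neutrophil complement receptor (chromosome 7, 135206154 to 135262005), stood at 2.1, 1.80 and 29.9 FPKM. The adult value stood alone for both, 27.4 and 16.6 times that at P3, with log2 differences of 3.89 and 3.47. Itgal, the partner on lymphocytes and other leukocytes, stood at 1.08, 0.630 and 2.93 FPKM, and Itgax, the partner on dendritic cells and some macrophages, at 0.0634, 1.02 and 1.85 FPKM. Itgax was thus above its E18.5 level by P3, with a difference of 0.93, just under 2-fold on this scale. With a pseudocount of 0.1 it was 2.78, a value that rests on the low E18.5 level, which was marked NOTEST in place of OK. Among the Itgb2 partners Itgam was the most abundant at each age, with a ratio to Itgal of 1.94, 2.86 and 10.2.

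Itgam and Itgax are neighbours on chromosome 7 with different courses, and their upstream windows are shown for that reason. Capitals mark GAGGAA, letters bound by PU.1-type factors, in Itgam (chr7:128062390-128062639, plus strand) and the AP-1 letters TGANTCA in Itgax (chr7:128129300-128129549, plus strand), both in GRCm38.p6 and on either strand.
Itgam: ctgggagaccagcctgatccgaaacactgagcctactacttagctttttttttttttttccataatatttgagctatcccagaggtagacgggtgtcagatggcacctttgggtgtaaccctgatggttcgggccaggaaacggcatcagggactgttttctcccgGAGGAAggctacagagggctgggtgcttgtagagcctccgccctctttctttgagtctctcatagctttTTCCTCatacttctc
Itgax: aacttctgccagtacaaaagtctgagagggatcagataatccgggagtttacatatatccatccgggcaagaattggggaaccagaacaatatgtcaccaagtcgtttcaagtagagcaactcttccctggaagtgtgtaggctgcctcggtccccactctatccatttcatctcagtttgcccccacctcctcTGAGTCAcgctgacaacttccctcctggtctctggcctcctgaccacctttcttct
Itgam held 2 matches of GAGGAA, starting 84 and 15 bases before the start site, and Itgax held none of these letters. Of all windows 23.3% held a match, and so did 13 of the 26 windows of members, Lama2 and Lamb3 among them. The match in Itgax, 56 bases before the start, was the only AP-1 match in the 26 member windows.

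The Itgb7 receptors bring lymphocytes into gut and epithelia. Itgb7 stood at 0.439, 0.653 and 8.32 FPKM, and its epithelial-homing partner Itgae, which binds E-cadherin, at 0.305, 0.277 and 3.37 FPKM. Both were low at E18.5 and P3 and higher at 10 weeks, by 2.49 and 1.78 over P3. Itgae shares its span with Gsg2 (2.70, 2.79 and 1.24 FPKM). The other partner Itga4, which also pairs with Itgb1 and binds Vcam1, did not follow, at 2.95, 0.999 and 2.61 FPKM. Its difference of -0.98 at P3 passes 2-fold under both other scalings (-1.07 and -1.14), and its span is shared with Cerkl (0.0511 to 0.321 FPKM). Itga4 exceeded Itgb7 by a ratio of 6.73 at E18.5 and 1.53 at P3, and stood at 0.313 of it at 10 weeks.

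Of the 7 leukocyte members tested, 5 were higher at 10 weeks than at P3 (19.8% of all genes were) and 5 higher than at E18.5 (16.1% were), with 0 called from E18.5 to P3. Both counts include Itgb7 and Itgae, the 2 members that reached 1 FPKM only at 10 weeks, so the counts follow in part from the minimum. With a pseudocount of 5, 3 were higher in each. At a minimum of 5 FPKM, 3 leukocyte members were tested and 3 were higher in each, all of them passing through their 10 week value. All 10 leukocyte markers were higher at 10 weeks than at P3 (2.14 to 3.50), and their summed level was 172, 88.1 and 803 FPKM. The 8 leukocyte members summed to 8.42, 6.55 and 79.5 FPKM. Itgb2 was 0.425 and 0.531 of the pan-leukocyte Ptprc at E18.5 and P3 and 1.19 of it at 10 weeks. That ratio was not fixed in advance. The level of Itgb2 relative to Ptprc was thus larger in the adult, but a ratio to another marker can take another course. The T cell marker Cd3e, for 1, stood at 0.0671, 0.0824 and 3.78 FPKM. The part of cell numbers in these values was not tested. Itga2b, the platelet and megakaryocyte subunit, stood at 1.10, 1.44 and 3.19 FPKM and passed in no comparison. With a pseudocount of 0.1 Itga2b was higher at 10 weeks than at P3 (1.09) and than at E18.5 (1.45). Of the platelet markers, Gp9, Gp5, Gp6, Gp1ba and Ppbp were under 1 FPKM at all ages; Pf4 stood at 125, 21.8 and 230 FPKM.

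Itga11, the collagen receptor subunit of fibroblasts, was higher in the adult than at both other ages. It had 0.869 FPKM at E18.5, 1.60 at P3 and 7.93 in the adult, with log2 differences of 2.26 over E18.5 and 1.78 over P3. The 6 fibroblast markers were all lower at P3 than at E18.5 (9.42% of all genes were), which Itga11 was not. Their collagen genes Col1a1 and Col1a2 were lower in the adult than at E18.5 (-1.61 and -1.03), while Dpt and Dcn were higher (1.80 and 1.95).

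Among broad or shared members the most abundant was Itgb1, the beta subunit common to most matrix receptors, with 126 FPKM at E18.5, 79.8 at P3 and 134 in the adult. It held 70.2%, 53.0% and 52.7% of the summed FPKM of the 8 beta subunits. Itgb5, a partner of Itgav, stood at 37.7, 39.9 and 47.6 FPKM, and Itgav, the alpha subunit of the vitronectin-type receptors, at 8.45, 11 and 13.9 FPKM. None of these passed 2-fold. Itgb8, another Itgav partner, stood at 1.65, 3.47 and 3.96 FPKM, the tenascin and lymphatic receptor subunit Itga9 at 5.50, 2.46 and 5.04 FPKM, and the collagen receptor subunit Itga2 at 4.09, 3.07 and 3.73 FPKM. These too stayed under 2-fold on the scale of FPKM + 1. Itga9 at P3, at -0.91, passes under both other scalings (-1.01 and -1.09). With a pseudocount of 0.1 Itgb8 was higher at P3 (1.03) and at 10 weeks (1.21) than at E18.5.

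The beta chains of the general laminins were far apart before birth and nearly level in the adult. Lamb1 had 56.8 FPKM at E18.5, 33.8 at P3 and 37.8 in the adult, and passed in no comparison. Lamb2, the beta chain of mature vessels, nerve and muscle junctions (chromosome 9, 108382193 to 108392861), stood at 17.7, 15.8 and 38.4 FPKM. It was higher at 10 weeks than at P3 (1.23) and than at E18.5 (1.07), the latter a call lost under both other scalings (0.86 and 0.78). The Lamb1 to Lamb2 ratio was 3.21, 2.13 and 0.984. Lamc1, the gamma chain of most laminins, stood at 47.5, 43.7 and 60.9 FPKM with no call. Lamc3, a gamma chain of restricted sites, had its largest value at E18.5, at 6.59, 3.29 and 2.16 FPKM. It was the 1 member lower at 10 weeks than at E18.5 (-1.27; 6.92% of all genes were lower). Its difference of -0.82 at P3 passes 2-fold with the upper quartile (-1.01).

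The makeup of the alpha chains differed most at P3. Lama4 held 48.7% of the summed alpha chain FPKM at E18.5, 21.3% at P3 and 49.3% in the adult. Lama5 held 15.0%, 40.9% and 9.77%, Lama3 11.7%, 22.3% and 7.54%, and Lama2 24.5%, 15.4% and 32.0%. The Lama4 to Lama5 ratio was 3.25, 0.520 and 5.05, so that Lama5 exceeded Lama4 at P3 only. The summed alpha chains moved less than their makeup, at 65.4, 52.6 and 66.8 FPKM. Among beta chains Lamb3 held 15.5%, 36.2% and 18.1%. Among integrin alpha subunits Itga6 held 33.8%, 40.3% and 19.2%, and Itgam 2.23%, 1.80% and 20.7%, which put Itgam above every other alpha subunit in the adult.

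**Figure D4:**
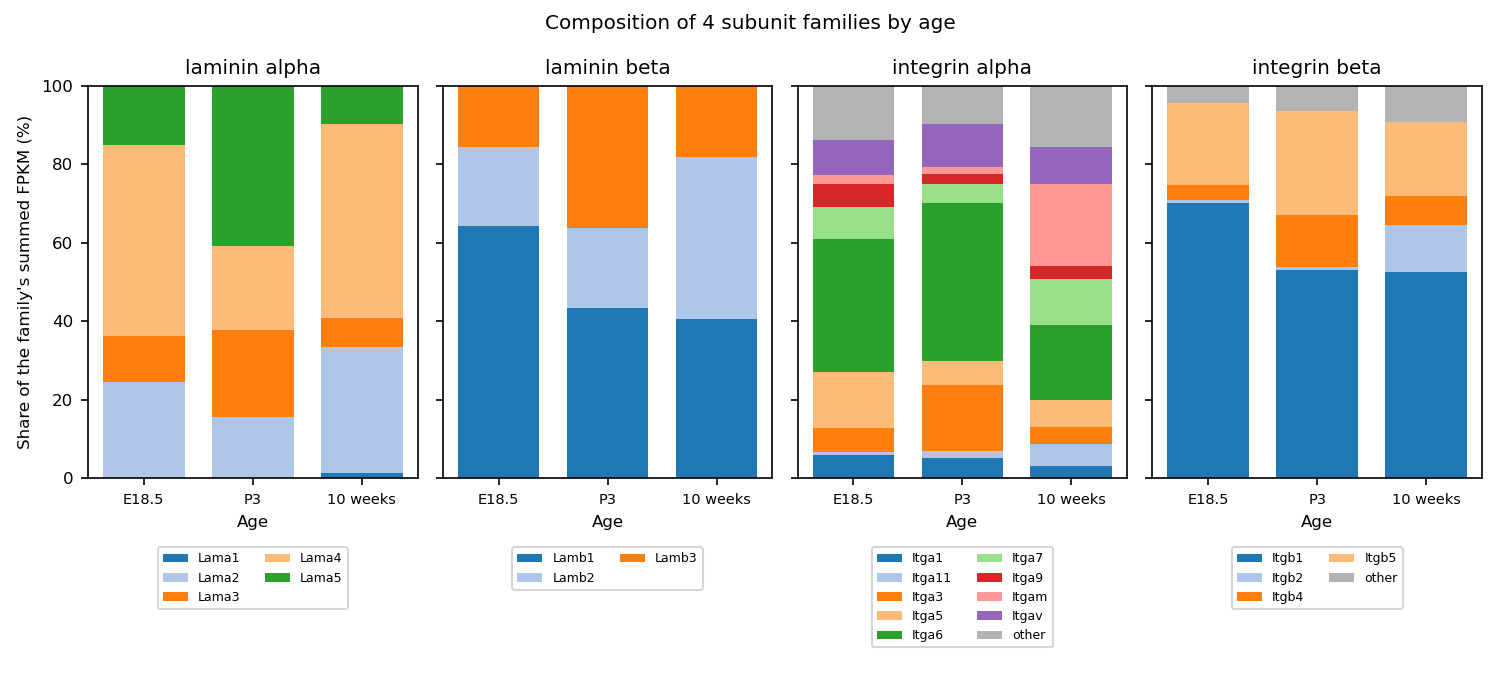
Share of the summed FPKM (percent) of 4 subunit families at the 3 ages, in 4 panels; bars stack the genes, and integrins under 5% at all ages are joined as other. At P3 Lama5 holds 40.9% of the laminin alpha chains against 15.0% at E18.5 and 9.77% at 10 weeks, and Itgam 20.7% of the integrin alpha subunits at 10 weeks.

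Partners of these proteins were read from lists of 19 basement membrane and hemidesmosome genes, 17 adhesion adaptors and 12 integrin ligands. Of the basement membrane list, 1 was higher and 2 lower from E18.5 to P3 (median 0.26), 2 were higher and 5 lower at 10 weeks than at P3 (-0.22), and 3 were higher and 4 lower at 10 weeks than at E18.5 (-0.28). In that order 15.8%, 36.8% and 36.8% of the list were called, against 19.0%, 29.8% and 23.0% of all genes. Col17a1 was the higher one at P3 (1.55). Frem1 (10.5, 2.34 and 1.11 FPKM), of the embryonic anchoring complex, and the linker nidogen Nid1 (88.4, 39.5 and 100 FPKM) were the lower ones. At 10 weeks Nid1 (1.33) and the tetraspanin Cd151 (1.04) were higher than at P3, the latter lost under both other scalings (0.94 and 0.96), as was its call over E18.5 (1.02; 0.81 and 0.73). Frem2 (6.72, 9.73 and 1.5 FPKM) and Fras1 (3.19, 6.08 and 0.433 FPKM), of the same complex as Frem1, were lowest in the adult. Against E18.5, Col7a1 of the anchoring fibrils was lower in the adult (25.0, 22.5 and 6.36 FPKM). Plec, the plectin that binds Itgb4, was higher (13, 21.5 and 29.9 FPKM), a call lost under both other scalings (0.94 and 0.86), which left 1 gene of this list higher from E18.5 to 10 weeks. With a pseudocount of 5, 1 gene of this list was higher and 3 lower from P3 to 10 weeks, and 1 higher and 2 lower from E18.5 to 10 weeks.

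Among adaptors, 0 of 17 were higher and 2 lower at P3 (median -0.23). At 10 weeks 6 were higher and 0 lower than at P3 (0.76), and 3 higher and 0 lower than at E18.5 (0.47). In that order 11.8%, 35.3% and 17.6% were called, against 19.0%, 29.8% and 23.0% of all genes. Both comparisons with E18.5 thus lay below the share of all genes. The lower ones were Itgb1bp2, the muscle protein melusin (83.1, 4.67 and 52.2 FPKM), and the kindlin Fermt2 (37.0, 17.9 and 51.5 FPKM; -1.01). Under both other scalings 4 were lower, and with a pseudocount of 5 it was 1, with 1 higher from E18.5 to 10 weeks. In that last comparison 2 were higher with the median of ratios and 1 with the upper quartile. The higher ones at 10 weeks included Itgb1bp2 (3.23) and Lims2, a partner of integrin-linked kinase (4.38, 2.53 and 22.3 FPKM). Fermt3, the kindlin of blood cells, stood at 5.94, 2.50 and 15.2 FPKM and was higher at 10 weeks than at P3 (2.21). Itgb2 was 0.247, 0.442 and 2.00 of Fermt3, also a ratio not fixed in advance. The epithelial kindlin Fermt1 stood at 4.76, 9.94 and 5.65 FPKM, highest at P3 like the epithelial subunits, with no call.

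Of the ligands, 3 of 12 were higher and 3 lower at P3 (median -0.55). At 10 weeks 6 were higher and 2 lower than at P3 (1.03), and 3 higher and 2 lower than at E18.5 (0.32). In that order 50%, 66.7% and 41.7% were called, against 19.0%, 29.8% and 23.0% of all genes. E-cadherin, Cdh1, the ligand of Itgae (44.2, 159 and 53.9 FPKM), was highest at P3 by 2-fold against both other ages. Osteopontin, Spp1, stood at 0.395, 2.15 and 17.5 FPKM and was higher at each later age. Icam2 (22.0, 5.04 and 10.9 FPKM) and Vcam1 (7.33, 1.72 and 5.02 FPKM), vessel ligands of Itgb2 partners and Itga4, were lower at P3. Vwf of endothelium and platelets (3.38, 1.53 and 9.17 FPKM) was higher at 10 weeks. Tenascin Tnc, a ligand of Itga9, was lower there (9.92, 23.3 and 2.05 FPKM; -2.99 from P3). Madcam1, a ligand of Itga4 with Itgb7, was listed at 0 at 10 weeks, after 1.11 and 0.459 FPKM. The ligand counts depended on the pseudocount: with 5 they were 1 higher and 1 lower, 3 and 2, and 1 and 1 in the same order. They also depended on the scaling: with the upper quartile 1 ligand was higher and 3 lower from E18.5 to 10 weeks, where Vwf (0.96) and vitronectin, Vtn (0.94), lost their calls, and Tnc lost its rise to P3 (0.96).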

How the data were processed

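RNA of skin was sequenced at 3 ages; per the labels' protocols, extraction used Trizol and libraries the Illumina TruSeq RNA kit. The authors deposited 1 averaged FPKM value per gene and age, per the file headers. TopHat2 2.0.7, Cufflinks 2.1.1 and mm9 are named in the submitters' processing notes; annotation, strand setting and multi-mapping treatment were not given in those sources. Each table had 21881 rows, 21877 of them in all 3. A total of 10 values with a failure mark listed at 0 were left out, none of a member. The mark NOTEST stood at 1 or more ages for 4 members, Itga10, Itgad, Itgax and Lama1, whose values were kept. Table starts count from 0, judged from 228 of 533 microRNA genes whose RefSeq length equals end minus start (3 fit the other count), so 1 was added.

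With Python 3.11.15, pandas 2.3.3, numpy 2.4.6 and matplotlib 3.10.9, log2((FPKM + 1) later / (FPKM + 1) earlier) was computed for all genes at 1 FPKM or more at 1 or more ages and called at 1. With 1 averaged value an age no test was made. The calls were tested on simulated data. The changes put in there were far past the cut and free of noise. That run checks the arithmetic and not the precision of calls near the cut or in low genes. Members, classes and lists were chosen with earlier results of these data known. 1 gene that meets the name rule is not reported here and enters no count of members; the others are named; of the lists, the 2 largest rises and falls past 2-fold per comparison and textbook partners. Trdc was not found. Promoter windows were matched by symbol; 24 of 26 matched a transcript's sense strand. A comparison of protein tails was not made. Alternatives were other pseudocounts (0.1, 5), minimums (none, 5 FPKM), scalings and a 1.5-fold call.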

Additional observations from a re-analysis of the deposited data

How the results depend on the processing

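Of 30 member calls, 14 were lost and 0 gained with a pseudocount of 5, and 0 lost and 12 gained with 0.1; the median of ratios lost 4 and gained 3, and the upper quartile lost 4 and gained 4. No call reversed in direction under any of these, but none could. A pseudocount keeps the sign of a difference, and the scalings shift it by 0.30 at most. A filter leaves each log2 difference as it is, so none or a minimum of 5 FPKM changed no call among the members compared. That minimum only drops members, and 25 of the 30 calls were still compared. In the 3 comparisons it left 3, 9 and 7 higher members, against 4, 11 and 9. The lower ones stayed at 2, 3 and 1. From E18.5 to P3, against 4 higher and 2 lower members, the counts were 7 and 4 with a pseudocount of 0.1, 2 and 1 with 5, 2 and 5 with the median of ratios, 2 and 6 with the upper quartile, and 7 and 9 when 1.5-fold was called. Of all genes, 12.2% were then higher and 14.7% lower, 5.75% and 4.27%, 8.45% and 11.1%, 7.52% and 12.6%, and 19.1% and 18.1%. From P3 to 10 weeks, against 11 and 3, the member counts were 7 and 1 with a pseudocount of 5, and 17 were higher at 1.5-fold. The shares of all genes were 10.9% and 6.13%, and 30.7% higher at 1.5-fold. From E18.5 to 10 weeks, against 9 and 1, the member counts were 5 and 0 with a pseudocount of 5 and 15 were higher at 1.5-fold. The shares of all genes there were 8.69% and 3.83%, and 28.5% higher at 1.5-fold. These changes follow from how the settings are built. A larger pseudocount shrinks the differences of low genes and a smaller one widens them. The scalings shift all log2 ratios down, and the 1.5-fold call lowers the cut. The labels give no replicate columns. No paired analysis was possible because each age has 1 averaged value.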
